A study of Mus musculus with 11 samples.

Results

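The 10 genes described here, Ppp3ca, Map3k5, Becn1, Galnt1, Galnt2, Galnt7, Lifr, Ppargc1b, Gnai2 and Atxn1, have been reported as targets of the miR-30 family of microRNAs. They were taken by symbol, and 10 of 10 had a row among the 13636 genes of the table. The samples are livers of male C57BL/6J mice, read by RNA-seq. The mice ate a Western diet from the age of 8 weeks, and 1 month later began a course of injections that lasted 6 weeks. The mimic group received a synthetic miR-30c mimic (4 libraries), the scramble group a scramble oligomer (3 libraries), and the PBS group the salt solution PBS (4 libraries). Mimic and scramble were given at a dose that was raised over the course, beginning at 2.5 mg/kg, with 5.0 next and 7.5 last, and all groups shared the strain, sex and diet. The libraries are numbered within each group but are not said to come from separate mice, so a p-value reflects how libraries of a group vary, which may be technical.

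A microRNA guides Argonaute proteins to messenger RNAs, mostly to matches of its seed in the 3′ UTR, and lowers the stability or the translation of the messenger. Members of a family share the seed and so share most predicted targets. In liver, miR-30c is best known for acting on lipoprotein assembly. The genes here lie mostly outside that pathway and serve calcium and stress signalling, autophagy, protein glycosylation, cytokine reception, G protein signalling and control of transcription.

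The mature sequences are shown because the seed, bases 2 to 8 and in capitals, defines the letters searched for in the targets. They are from RefSeq on GRCm38.p6, the 5′ end first, and 3 family members matched by name.
mmu-miR-30a-5p: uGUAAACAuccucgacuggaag
mmu-miR-30c-5p: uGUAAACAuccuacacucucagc
mmu-miR-30e-5p: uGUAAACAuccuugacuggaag
The seed was the same in the 3 sequences. The mature miR-30c sequence was listed at 2 loci, on chromosomes 1 and 4.

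The longest annotated 3′ UTR of each gene (GENCODE M21, GRCm38) was searched on the transcript strand for TGTTTAC, the match to the seed, and for the longer TGTTTACA, which contains it. Other forms of match to the seed and other annotated 3′ UTRs of a gene were not searched. At least 1 match was found in 9 of the 10 genes. Of 11456 genes in the table with such a UTR, 16.0% held the 7-base match and 8.18% the 8-base match. The genes were listed as reported targets, so matches were part of the reason they were listed and their number is a description. Windows of 30 bases around the matches are shown for genes that were lower and genes that were not, with the match in capitals.
Map3k5, chr10:20141683-20141712 (+): aatccagtcttTGTTTACtcgtgtcgcaaa
Becn1, chr11:101288701-101288730 (-): attaaaccacaTGTTTACAataccaaaatc
Lifr, chr15:7196758-7196787 (+): cagtgcattacTGTTTACAagacacacata
Lifr, chr15:7196885-7196914 (+): atgctagctccTGTTTACtaacttttgttt
Atxn1, chr13:45553399-45553428 (-): ggccttttttgTGTTTACAacggaacacaa
Atxn1, chr13:45550695-45550724 (-): gtgggaagcacTGTTTACAgtaacccttac
Galnt2, chr8:124345350-124345379 (+): tcggtgagccaTGTTTACAtgacagtgtgc
Galnt7, chr8:57525909-57525938 (-): tctgcagtgacTGTTTACAaaactgctctt
Galnt7, chr8:57525875-57525904 (-): taaactctagaTGTTTACAtcgttttttgt
Gnai2, chr9:107614706-107614735 (-): ccaagtccaaaTGTTTACAgggagcctcct
Gnai2, chr9:107614421-107614450 (-): gtgtgtctgcgTGTTTACAcccatccctct
Galnt1 held 1 match of 8 bases, and Ppargc1b held 1 of 7 and 1 of 8 bases. The 3′ UTR of Ppp3ca, of 2502 bases, held 0 matches. Among genes with a 3′ UTR of similar length (the shorter at least 0.8 of the longer), the 7-base match was held by 5.69% for Ppargc1b, 11.6% for Gnai2 and 24.0% for Galnt7, but by 50.6% for Lifr and 53.8% for Atxn1, whose UTRs were 6320 and 7300 bases long.

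Values are given as deposited and called scaled CPM: the column totals differ, so they are not plain CPM, and a further factor per library is read from the values rather than stated by the authors. Log2 changes are on the scale of log2(value + 1), where changes of weakly expressed genes come out too small. A gene is called when its adjusted p is under 0.05 with limma, adjusted over all 13636 genes. The column totals ran from 605536 to 1504311. The directions below are relative to the bulk of genes, since the scaling of the deposited values puts the median change of all genes at 0.00 in mimic against scramble. When values were divided by library totals instead, that median moved to 0.49 against scramble and to 0.51 against PBS. That division gives shares of a library and mainly moves where 0 lies, so it is no independent check of a gene's place among all genes. Of the 10 genes, 2 were then called higher and 0 lower in each comparison. Of all 13636 genes, 5498 were then higher and 110 lower against scramble, and 6882 and 120 against PBS. Counts of gene lists with library totals, given below, are to be read beside these numbers. No measure of RNA per cell or tissue was used here, so neither scaling gives absolute amounts.

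Against scramble, 5 of the 10 genes fell (Ppp3ca, Map3k5, Becn1, Lifr and Atxn1) and 1 rose (Gnai2). Of all genes tested, 32.0% were called, 14.7% lower and 17.3% higher. Against PBS, 7 fell, the same 5 with Galnt1 and Ppargc1b, and 1 rose, Gnai2. The shares of all genes there were 37.1% in either direction, 17.1% lower and 20.0% higher. Counts of gene lists and markers below are to be read beside these shares. With only genes averaging at least 5 tested, as all 10 do, 1757 were lower and 1059 higher against scramble, and 1960 and 1313 against PBS. Of the 10 genes, 6 and 7 were then lower and 1 was higher in each. Lower calls were thus the more frequent among genes of such levels. The median log2 change of the 10 genes was -0.46 against scramble and -0.33 against PBS, beside 0.00 and 0.00 over all genes. The comparisons share the mimic libraries. In scramble against PBS 0 of the 10 genes were called, and 0.00% of all genes. At an unadjusted p under 0.05 there were 434 genes (3.18%), 1 of them among the 10.

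**Figure D1:**
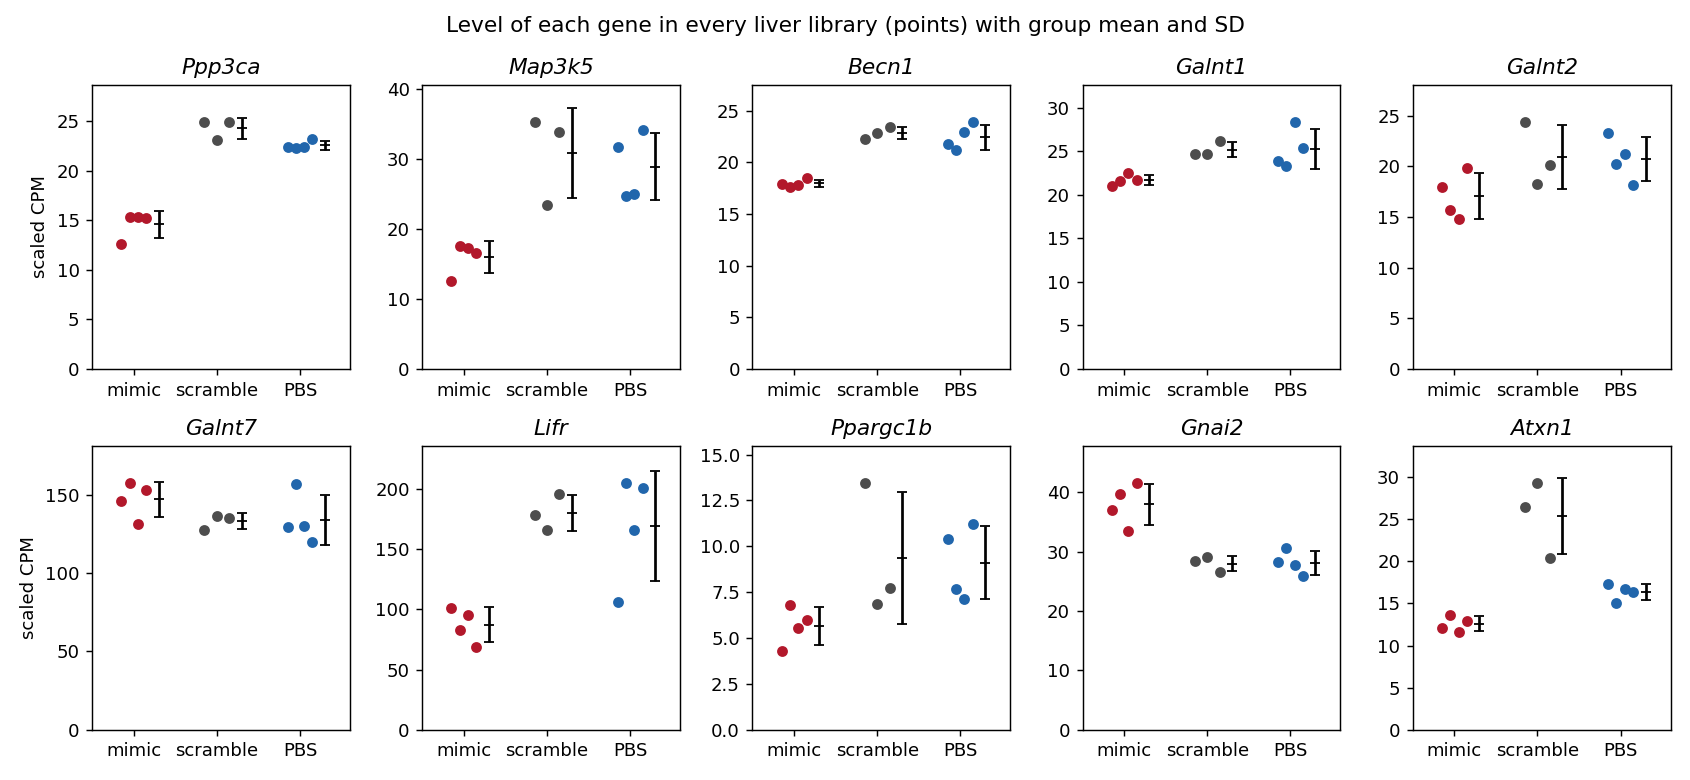
Scaled CPM (vertical axis, from 0) of each of the 10 genes in every library, with mimic, scramble and PBS from left to right. Points are libraries and black bars the group mean with its SD (n = 4, 3 and 4). Mimic libraries of Ppp3ca and Becn1 do not overlap the others, at means of 14.6 against 24.3 and 18.0 against 22.8 in mimic against scramble.

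Ppp3ca (chromosome 3, 136670124 to 136937727, plus strand) encodes a catalytic subunit of calcineurin, the calcium-dependent phosphatase that activates NFAT transcription factors. Its level was 12.6, 15.3, 15.3 and 15.2 in the mimic libraries, 24.9, 23.0 and 24.9 in the scramble libraries and 22.3, 22.3, 22.3 and 23.2 in the PBS libraries. All 4 mimic libraries lay below all 7 others. By limma, the mimic group minus the scramble group gave a log2 change of -0.70 ± 0.08 (SE, adjusted p = 0.00010), and the mimic group minus the PBS group gave -0.60 ± 0.07 (adjusted p = 0.00015). This was the smallest adjusted p of the 10 genes against scramble, in the 1 gene without the letters searched for in its longest annotated 3′ UTR. Other forms of match were not searched. Divided by library totals, Ppp3ca was at -0.14 and -0.02 and was not called.

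Of 12 other measured genes of calcineurin and NFAT signalling, 2 rose and 4 fell against scramble, with a median of -0.14. The share of all genes called there was 32.0%. Ppp3cb, the beta catalytic subunit, fell to 9.39 ± 0.607 in the mimic group, against 12.5 ± 0.141 in the scramble group (SD, n = 4 and 3), and was at a log2 change of 0.16 with library totals. Chp1, a calcineurin-like calcium-binding protein, changed by -0.58, and by 0.00 with library totals. Rcan3, of the family of calcineurin regulators, changed by 0.58, at means of 1.04 and 0.357 in the mimic and scramble groups. Against PBS the counts were 2 and 4 as well, beside 37.1% of all genes called. With library totals 5 of the 12 were higher and 0 lower in each comparison. The medians were 0.40 against scramble and 0.28 against PBS, beside 0.49 and 0.51 over all genes.

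Map3k5 (chromosome 10, 19934472 to 20142753, plus strand) encodes ASK1, a kinase that passes oxidative and inflammatory stress to the p38 and JNK kinases. The mimic libraries had 12.6, 17.6, 17.3 and 16.5, the scramble libraries 35.3, 23.4 and 33.9, and the PBS libraries 31.8, 24.7, 24.9 and 34.1. The groups given mimic and those not did not overlap, while the 7 libraries without mimic varied among themselves from 23.4 to 35.3. In limma, mimic minus scramble gave a log2 change of -0.90 ± 0.17 (SE, adjusted p = 0.0024), and mimic minus PBS gave -0.81 ± 0.15 (adjusted p = 0.0023). With library totals it was -0.33 and -0.23 and not called.

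Of 15 other measured genes of the stress kinase cascade, 2 rose and 3 fell against scramble and also against PBS. The called share of all genes was 32.0% and 37.1% in these comparisons. Map3k7, which encodes the kinase TAK1, had 15.7 ± 0.796 in the mimic group and 21.5 ± 0.410 in the scramble group (SD, n = 4 and 3), and Mapk8, which encodes JNK1, changed by -0.49. With library totals these 2 changes were 0.13 and 0.04, not called. Daxx, an adaptor and transcription regulator that binds ASK1, rose by 0.44 on the log2 scale, and by 0.96 with library totals. With library totals 3 of the 15 were higher and 0 lower against scramble, and 5 and 0 against PBS. The median against scramble was 0.39, beside 0.49 over all genes.

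Becn1 (chromosome 11, 101285952 to 101302286, minus strand) encodes beclin 1, a subunit of the lipid kinase complexes that start and mature autophagosomes. Its level was 17.9, 17.6, 17.8 and 18.5 in the mimic libraries, 22.2, 22.8 and 23.4 in the scramble libraries and 21.8, 21.1, 22.9 and 23.9 in the PBS libraries. The 4 mimic libraries lay close together and below all others. By limma, the mimic group minus the scramble group gave a log2 change of -0.33 ± 0.06 (SE, adjusted p = 0.0029), and the mimic group minus the PBS group gave -0.30 ± 0.06 (adjusted p = 0.0025), but 0.23 and 0.28 with library totals, where it was not called. An exon of Becn1 overlaps an exon of Cntd1 on the opposite strand, and whether the authors counted by strand is not given in the sources used here. The share of reads the genes could exchange was not tested.

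Of 24 other measured genes of autophagy, 3 rose and 10 fell against scramble, and 3 rose and 7 fell against PBS. Among all genes the called shares were 32.0% and 37.1%. Rb1cc1, a scaffold of the ULK1 complex, had 15.2 ± 1.44 in the mimic group and 23.0 ± 2.01 in the scramble group (SD, n = 4 and 3). Atg12, a ubiquitin-like protein of autophagosome growth, changed by -0.35. Bcl2l1, which encodes the beclin-binding survival protein BCL-XL, changed by 0.45. With library totals, 5 of the 24 were higher and 0 lower against scramble and 6 and 0 against PBS, with Rb1cc1 at -0.01 and Atg12 at 0.19.

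**Figure D2:**
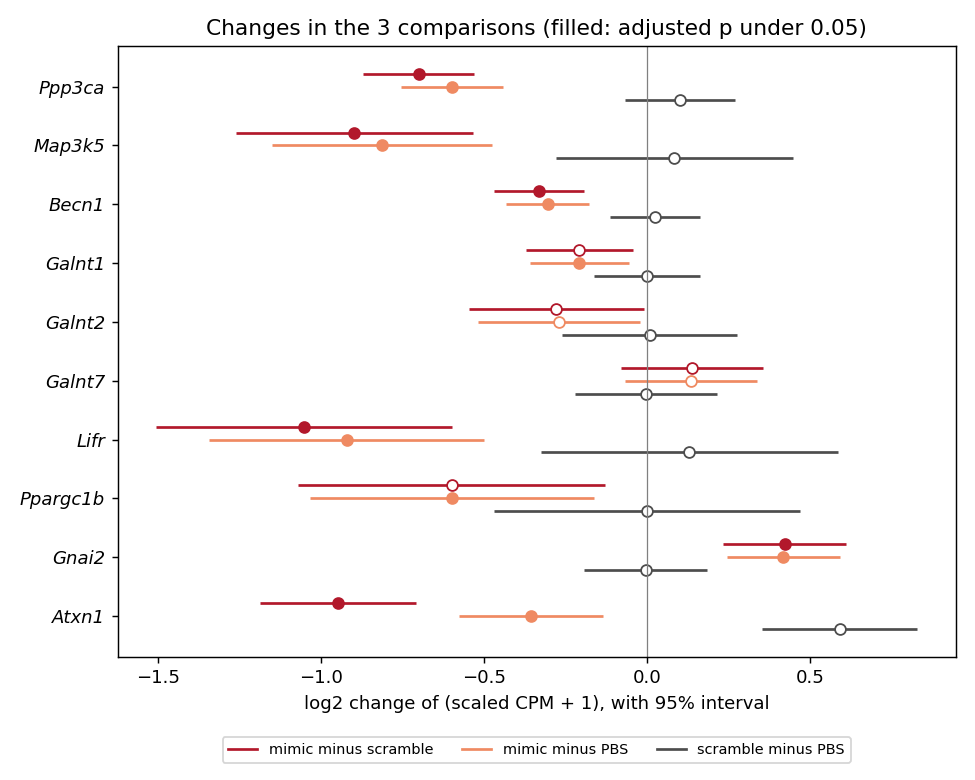
Log2 change of (scaled CPM + 1) on the horizontal axis for each gene, with its 95% interval, for mimic minus scramble, mimic minus PBS and scramble minus PBS. Filled points have an adjusted p under 0.05 by limma. Lifr, at -1.05, is farthest to the left and Gnai2, at 0.42, farthest to the right for mimic minus scramble, and Atxn1 stands apart, at 0.59, for scramble minus PBS. Changes with library totals are not drawn here. Under that scaling Becn1, Galnt1 and Galnt2 were above 0 in both mimic comparisons, and Atxn1 was in mimic minus PBS.

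Galnt1, Galnt2 and Galnt7 encode Golgi enzymes that attach N-acetylgalactosamine to serine or threonine, the first step of mucin-type O-glycosylation. Galnt7 prefers peptides that already carry the sugar. Galnt1 (chromosome 18, 24205344 to 24286818, plus strand) had 21.03, 21.5, 22.5 and 21.7 in the mimic libraries, 24.7, 24.7 and 26.2 in the scramble libraries and 23.9, 23.3, 28.4 and 25.4 in the PBS libraries. Every mimic library was below every other library, by a small margin. Its log2 change was -0.21 ± 0.07 (SE) against each, with adjusted p of 0.053 against scramble, which was not called, and 0.036 against PBS by limma. The call against PBS ended without any 1 of mimic replicates 1, 2 and 4 or PBS replicates 3 and 4, with adjusted p between 0.065 and 0.11. Against scramble Galnt1 was called without PBS replicate 2 or 3, at adjusted p of 0.041 and 0.037 by limma. With library totals the changes were 0.36 and 0.38.

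Galnt2 (chromosome 8, 124231391 to 124345724, plus strand) had 18.0, 15.7, 14.8 and 19.8 in the mimic libraries, 24.4, 18.2 and 20.1 in the scramble libraries and 23.3, 20.2, 21.2 and 18.2 in the PBS libraries. The groups overlapped. The log2 change was -0.28 against scramble, with a 95% interval from -0.54 to -0.01, and -0.27 against PBS, with an interval from -0.52 to -0.02. Without scramble replicate 1 the change of Galnt2 against scramble was -0.17. Without mimic replicate 4 the change against PBS was -0.34 and was called, at adjusted p of 0.049 by limma. With all libraries neither passed, at adjusted p of 0.10 and 0.083 by limma, and both changes were above 0 with library totals, at 0.29 and 0.31. Gm20388 overlaps Galnt2 on the same strand.

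Galnt7 (chromosome 8, 57523828 to 57653032, minus strand) had 146, 158, 132 and 153 in the mimic libraries, 128, 137 and 136 in the scramble libraries and 129.8, 157, 130.4 and 119.8 in the PBS libraries. The groups overlapped. Its 2 matches of 8 bases start 187 and 221 bases after the stop codon. The log2 change was 0.14 against scramble, with a 95% interval from -0.08 to 0.36, and 0.14 against PBS, with an interval from -0.07 to 0.34. It was not called, at adjusted p of 0.30 and 0.26 by limma. With library totals it was called higher, at 0.72 and 0.74, beside medians of 0.49 and 0.51 over all genes.

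Of 6 other measured genes of the family and of the next step of the sugar chain, 2 rose and 0 fell against scramble. Called genes were 32.0% of all genes there. Galnt6 had 1.79 ± 0.146 in the mimic group and 0.488 ± 0.0231 in the scramble group, and Galnt10 had 3.35 ± 0.337 and 1.92 ± 0.343 in those groups (SD, n = 4 and 3). With library totals these rose as well, by 1.23 and 1.01, beside a median of 0.49 over all genes. Against PBS, 2 rose and 2 fell, beside 37.1% of all genes called. With library totals 3 were higher and 0 lower in each comparison.

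Lifr (chromosome 15, 7090614 to 7197489, plus strand) encodes the receptor subunit that binds leukemia inhibitory factor and signals with gp130 to STAT3. The mimic libraries had 102, 82.8, 95.5 and 69.1, the scramble libraries 178, 166 and 196, and the PBS libraries 106, 205, 166 and 201. The mimic libraries were below all others, but PBS replicate 1, at 106, stood close to mimic replicate 1, at 102. In limma, mimic minus scramble gave a log2 change of -1.05 ± 0.21 (SE, adjusted p = 0.0034), and mimic minus PBS gave -0.92 ± 0.19 (adjusted p = 0.0039). Against PBS it was -1.13 without PBS replicate 1. With library totals it was -0.47 and -0.31 and not called.

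Fewer cells of a type and less RNA per cell cannot be told apart in bulk liver. Of 10 hepatocyte markers, 0 were higher and 2 lower against scramble, and 0 and 3 against PBS. With library totals 0 were higher and 0 lower against scramble, and 1 and 0 against PBS. The medians there were 0.29 and 0.36, beside 0.49 and 0.51 over all genes. With quantile normalization 0 were higher and 2 lower in each comparison. In scaled CPM the summed level of these markers ran from 29805.5 to 36428 in the mimic libraries. It was 40561 to 45754 in the scramble libraries and 39331 to 45034 in the PBS libraries. Alb, with the highest level of the 10 markers, weighs most in the sum. It had 12092 in the mimic group and 17305 in the scramble group and was not called. No marker was at 0 in any group as a whole. The part of hepatocytes in the lower values of the 10 genes was not tested.

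Of 13 other measured genes of LIF receptor and gp130 signalling, 3 rose and 3 fell against scramble and also against PBS. These counts stand beside 32.0% and 37.1% of all genes called. Il6st, which encodes gp130, had 36.6 ± 2.62 in the mimic group and 49.9 ± 5.03 in the scramble group (SD, n = 4 and 3). Cntfr, a receptor subunit for ciliary neurotrophic factor, changed by -0.58 at values near 1, and Ptpn11, which encodes the phosphatase SHP2, by -0.34. With library totals these 3 were at 0.14, -0.36 and 0.23, and 6 of the 13 genes were higher and 0 lower in each comparison.

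Gnai2 (chromosome 9, 107614125 to 107635367, minus strand) encodes an alpha subunit of inhibitory G proteins, which lower cyclic AMP and are abundant in immune cells. The mimic libraries had 37.1, 39.6, 33.5 and 41.6, the scramble libraries 28.4, 29.0 and 26.6, and the PBS libraries 28.3, 30.5, 27.7 and 25.8. All mimic libraries were above all others. By limma, the mimic group minus the scramble group gave a log2 change of 0.42 ± 0.09 (SE, adjusted p = 0.0040), and the mimic group minus the PBS group gave 0.42 ± 0.08 (adjusted p = 0.0023). It was called with library totals too, at 0.99 and 1.01, beside medians of 0.49 and 0.51 over all genes. That scaling moves most genes up, so the call there is no independent check. Gnai2 holds 2 matches of 8 bases in a 3′ UTR of 997 bases.

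Markers of other cells changed too, not all of them in the direction of Gnai2. Of 5 measured neutrophil markers 5 were higher, with a summed level from 16.2 to 35.6 in the mimic libraries, 1.17 to 1.77 in the scramble libraries and 1.65 to 2.66 in the PBS libraries. Of 15 markers of macrophages and Kupffer cells 8 were higher and 4 lower. Their sums ran from 136 to 255 in the mimic libraries, 64.8 to 119 in the scramble libraries and 68.9 to 154 in the PBS libraries. The 4 lower were Clec4f, Timd4, Vsig4 and Cd163, at log2 changes of -2.42, -1.69, -1.69 and -1.74 against scramble. Of 10 stellate cell and fibroblast markers 8 were higher, with sums from 180.2 to 357 in the mimic libraries, 70.3 to 78.1 in the scramble libraries and 49.6 to 82.1 in the PBS libraries. These counts were the same against scramble and against PBS. With library totals the neutrophil counts did not change, 9 stellate markers were higher and 0 lower in each comparison, and 10 macrophage markers were higher and 4 lower against scramble and 9 and 4 against PBS. Of 10 genes listed for lymphocytes the 1 measured was Ptprc, which encodes CD45 and is carried by all leukocytes. It was higher in both, and no gene particular to lymphocytes was tested. Of 10 sinusoidal endothelial markers 2 were higher and 1 lower against scramble, and 1 and 4 against PBS, but 3 and 0, and 4 and 0, with library totals. Of 3 measured bile duct markers 1 was higher against scramble and 3 against PBS, and 3 in each with library totals. No marker was at 0 throughout a group. The part of these cells in the level of Gnai2 was not tested.

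Of 18 other measured genes of G protein subunits and RGS regulators, 3 rose and 2 fell against scramble and also against PBS. Over all genes, 32.0% and 37.1% were called. The gamma subunit gene Gng2 had 2.41 ± 0.215 in the mimic group and 0.862 ± 0.0998 in the scramble group (SD, n = 4 and 3). Gng10, another gamma subunit, and Rgs19, which speeds the inactivation of inhibitory alpha subunits, changed by 0.61 and 0.68. The 3 rose with library totals too, by 1.24, 1.03 and 0.99, beside a median of 0.49 over all genes. Under that scaling 8 of the 18 were higher and 1 lower against scramble and 9 and 0 against PBS.

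Ppargc1b (chromosome 18, 61298136 to 61400431, minus strand) encodes PGC-1 beta, a coactivator of nuclear receptors that drives mitochondrial and lipid genes. Its level was 4.29, 6.80, 5.54 and 6.00 in the mimic libraries, 13.5, 6.85 and 7.74 in the scramble libraries and 10.4, 7.69, 7.15 and 11.2 in the PBS libraries. The groups did not overlap, though mimic replicate 2, at 6.80, and scramble replicate 2, at 6.85, nearly met. The log2 change was -0.60 ± 0.21 (SE) against scramble, with adjusted p of 0.052, and -0.60 ± 0.20 against PBS, with adjusted p of 0.035 by limma. Without scramble replicate 1, which stood at 13.5, the change of Ppargc1b against scramble was -0.33. It was called without scramble replicate 2, at -0.77 and adjusted p of 0.034, and without mimic replicate 2, at -0.68 and adjusted p of 0.046 by limma. The call against PBS ended without any 1 of mimic replicates 1, 3 and 4 or PBS replicates 1 and 4, with adjusted p between 0.059 and 0.0999, and with library totals the changes were -0.08 and -0.07.

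Of 13 other measured genes of PGC-1 coactivators and their partners, 0 rose, and 4 fell against scramble and 6 against PBS. The shares of all genes called lower were 14.7% and 17.1%. Ppara, the nuclear receptor of fatty acid oxidation, had 150.3 ± 31.9 in the mimic group and 237 ± 31.0 in the scramble group (SD, n = 4 and 3). Sirt1, a deacetylase, and Gabpa, a transcription factor of nuclear genes for mitochondria, changed by -0.39 and -0.36. With library totals Ppara was at -0.09, Sirt1 at 0.10 and Gabpa at 0.20, and of the 13 genes 1 was higher and 0 lower against scramble, and 5 and 0 against PBS.

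Atxn1 (chromosome 13, 45549755 to 45965008, minus strand) encodes ataxin 1, a chromatin-binding protein that represses transcription together with capicua. Its level was 12.1, 13.7, 11.6 and 12.9 in the mimic libraries, 26.4, 29.3 and 20.5 in the scramble libraries and 17.3, 15.1, 16.7 and 16.3 in the PBS libraries. The 3 groups did not overlap with each other, with the scramble libraries highest and the mimic libraries lowest. In limma, mimic minus scramble gave a log2 change of -0.95 ± 0.11 (SE, adjusted p = 0.00014), and mimic minus PBS gave -0.35 ± 0.10 (adjusted p = 0.018), and -0.39 and 0.22 with library totals, where it was not called. Against PBS the call also ended with mimic replicates 2 and 3 alone, at -0.35 and an adjusted p of 0.087.

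Scramble and PBS libraries of Atxn1 differed by a log2 change of 0.59 ± 0.11 (SE), with a 95% interval from 0.35 to 0.83. The unadjusted p was 0.00017 and the adjusted p 0.56 by limma, so it was not called, and the value was 0.61 with library totals. It was the 1 gene of the 10 whose scramble and PBS libraries did not overlap, as in 4.72% of all genes, 2.39% lower and 2.33% higher in the scramble group. In the other 9 genes the change of scramble against PBS lay between -0.003 and 0.13. Their 95% intervals reached from -0.47 to 0.47 for Ppargc1b and from -0.32 to 0.59 for Lifr, and were narrowest for Becn1, from -0.11 to 0.16.

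Of 8 other measured genes of ataxin 1 and capicua function, 0 rose and 1 fell, against scramble and against PBS. Among all genes, 14.7% and 17.1% were lower. The gene that fell was Rora, a nuclear receptor of the circadian clock. It had 29.3 ± 3.19 in the mimic group and 47.2 ± 8.33 in the scramble group (SD, n = 4 and 3), and was at -0.09 with library totals. Under that scaling 1 of the 8 was higher and 0 lower against scramble, and 2 and 0 against PBS.

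**Figure D3:**
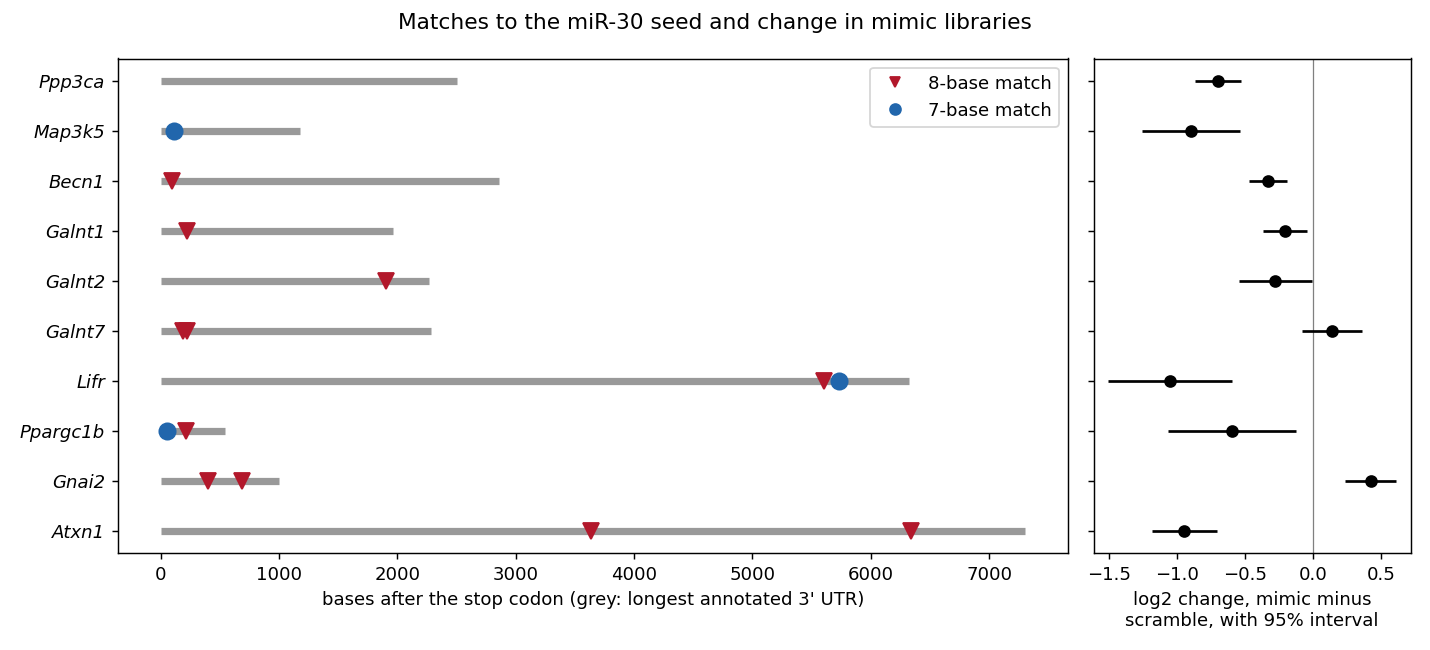
Left, matches to the miR-30 seed by their distance in bases after the stop codon along the longest annotated 3′ UTR (grey), as red triangles for 8 and blue circles for 7 bases. Right, log2 change of mimic minus scramble with its 95% interval. Ppp3ca has 0 matches and a change of -0.70, and Gnai2 has 2 matches of 8 bases and a change of 0.42. Changes with library totals, where Becn1, Galnt1 and Galnt2 were above 0, are not drawn here.

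Across the 10 genes the number of matches did not order the changes. The genes with 2 matches were Galnt7, Gnai2, Ppargc1b, Atxn1 and Lifr, at log2 changes of 0.14, 0.42, -0.60, -0.95 and -1.05 against scramble. The matches of Atxn1 and Lifr lay 3638 or more bases after the stop codon, and those of Galnt7, Gnai2 and Ppargc1b 683 or fewer. With 10 genes this is a description and was not tested.

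The groups of mimic and scramble libraries did not overlap in 8 of the 10 genes, 7 lower and 1 higher, as in 40.8% of all genes, 19.2% lower and 21.6% higher. The groups of Galnt2 and Galnt7 overlapped. For mimic and PBS it was again 8, without Galnt2 and Galnt7, 7 lower and 1 higher, as in 31.7% of all genes, 14.5% lower and 17.2% higher. At an unadjusted p under 0.05, 9 of the 10 passed against scramble and 9 against PBS, as did 44.1% and 47.3% of all genes.

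Divided by the length of the annotated exons, in scaled CPM per kb, Galnt7 had the highest level, which averaged 28.0 ± 2.16, 25.4 ± 0.949 and 25.6 ± 3.03 in mimic, scramble and PBS libraries (SD, n = 4, 3 and 4). Lifr averaged 8.10 ± 1.34, 16.7 ± 1.39 and 15.7 ± 4.25 per kb in the mimic, scramble and PBS groups. Gnai2 averaged 10.04 ± 0.926, 7.41 ± 0.339 and 7.43 ± 0.517 in these groups. Lifr thus stood above Gnai2 in the scramble and PBS groups, whereas in the mimic group its mean was below that of Gnai2 with SDs that met. Atxn1 was the lowest of the 10, at 0.905 ± 0.0651, 1.83 ± 0.326 and 1.18 ± 0.0675 in mimic, scramble and PBS libraries.

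**Figure D4:**
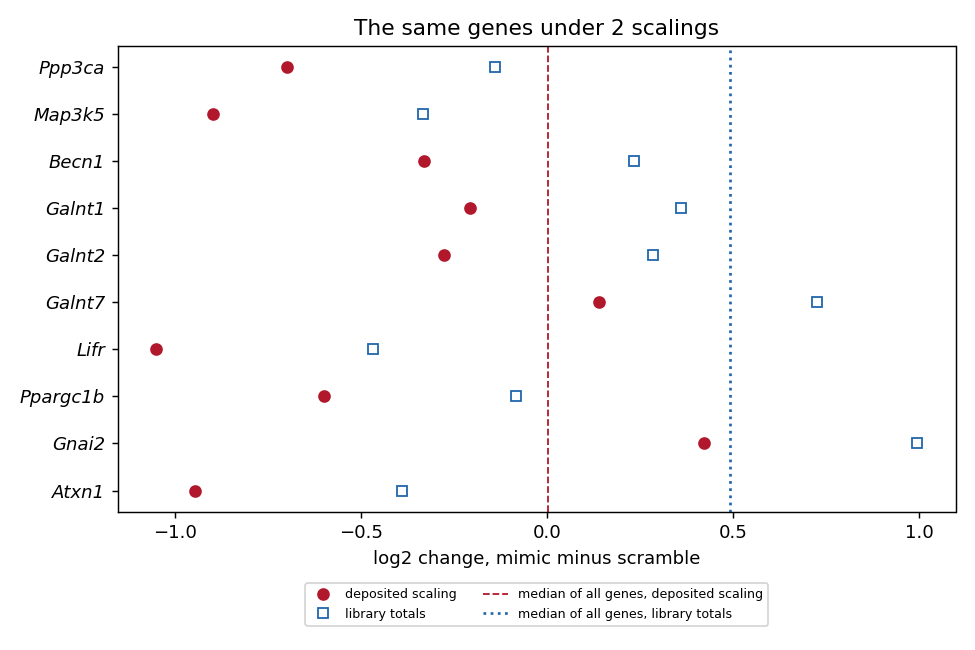
Log2 change of mimic minus scramble (horizontal axis) of each gene with the deposited scaling (filled circles) and with library totals (open squares), beside the median of all genes in each (vertical lines, at 0.00 and 0.49). All 10 genes move to the right with library totals, as the median of all genes does, and Becn1, Galnt1 and Galnt2 cross 0.

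For each gene called against scramble, the 2 genes with the most similar profile of log2(value + 1) over the 11 libraries were found by Pearson's r. They were Mtfr1 (0.99) and Scrn3 (0.98) for Ppp3ca, Nedd4 (0.97) and Pard3 (0.97) for Map3k5, and Vapa (0.99) and Tm9sf3 (0.98) for Becn1. For Lifr they were Abce1 (0.98) and Nudt7 (0.97). For Gnai2 they were S100a4 (0.98), a calcium-binding protein gene known from macrophages and fibroblasts, with means of 2.41, 0.160 and 0.276 in mimic, scramble and PBS libraries, and Cacnb3 (0.98). The profile of Atxn1, with its high scramble libraries, was less closely matched, by Cav1 (0.92) and Mir6900 (0.92). All of these share the libraries and the difference between groups.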

How the data were processed

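Per the labels' protocols, RNA from frozen liver was made into stranded mRNA libraries and read as paired ends of 48 bases. The deposited table holds 1 signal value per gene and library, here called scaled CPM. Its scaling by a factor per library is inferred from column totals that differ. The build was mm10, and edgeR 3.8.6 in R 3.1.2, bedtools 2.17.0, Bowtie and SAMtools 0.1.19 were among the tools, per the submitters' processing notes. Their order and settings are not given in the sources used here. Values in each library were whole multiples of a step (tolerance 1e-06), with 39705157 to 101380174 steps per library and 268 to 13421 steps in each value of the 10 genes. Low values were too few in most libraries to establish that a step is 1 read, so no test of counts was run and the depth is not taken as known.

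The groups were compared by limma 3.58.1, run in R 4.3.3, on log2(value + 1), with 3 group means over 11 libraries, a variance trend and Benjamini-Hochberg adjustment over 13636 genes at 0.05. It was tested on simulated data of 13636 genes, with independent normal noise of the spread of each gene. At each size 100 genes were moved, none of them among the weakest. Far fewer genes changed there than were called in these data, and changes under 2-fold were not simulated. The numbers describe such simulated data only. For mimic against scramble it found 97 of 100 genes moved 2-fold and 99 of 100 moved 4-fold, with 17 false calls. These numbers were 90, 98 and 12 when mimic was set against PBS, and 95, 98 and 12 when scramble was. Intervals are 95%.

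Groups came from the sample titles. The 10 genes and the lists, which were written from general knowledge, were chosen with earlier results of these data known. Named genes were the 10, up to 3 called genes with the smallest p per pathway list, and the 2 nearest profiles per called gene. No 2 libraries were identical. Alternatives were another pseudocount, filters on low values, scalings, library weights, the variance model, which libraries enter the fit, and blocks by replicate number. Sequences and 3′ UTRs came from RefSeq (GRCm38.p6) and GENCODE M21 (GRCm38, the assembly of mm10). The transcript letters before each UTR were a stop codon in 28283 of 28283 transcripts.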

Additional observations from a re-analysis of the deposited data

Results flagged for a closer look

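Ppp3ca was at 12.6 in mimic replicate 1, below the other mimic libraries at 15.2 to 15.3, a gap of 0.971 of the range of the group. Ppp3ca was at 23.2 in PBS replicate 4, above the other PBS libraries, which all stood at 22.3, a gap of 0.908 of the range. These were the 2 of 20 groups of 4 libraries in which 1 library lay this far from the others, and chance gives about 1 in 20.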

How the results depend on the processing

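The tests on read counts were not run, since reads could not be established from the values. With library totals 2 of the 10 genes were called in each mimic comparison, against 6 and 8. Becn1, Galnt1 and Galnt2 turned to 0.23, 0.36 and 0.29 against scramble, and Becn1, Galnt1, Galnt2 and Atxn1 to 0.28, 0.38, 0.31 and 0.22 against PBS. The median of all genes moved to 0.49 and 0.51 there. Of the 10 genes, 8 lay below that median and 2 above it in each comparison. In the other alternatives 6 to 8 of the 10 were called in each mimic comparison. The split of all genes with library totals was 5498 higher and 110 lower against scramble and 6882 and 120 against PBS, beside 2363 and 2000 and 2733 and 2326. With the filter at a mean of 5, 2816 and 3273 genes were called, 1059 and 1313 of them higher, and with mimic replicates 2 and 3 alone 2548 and 2894, beside 4363 and 5059. Leaving out 1 library gave 2824 (without scramble replicate 1) to 4904 (without PBS replicate 2) genes against scramble, and 3758 to 5681 against PBS.

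In scramble against PBS 5 genes were called with only the 2 groups compared, and 0 to 1 when 1 library was left out, the 1 without PBS replicate 1. Changes near 0 turned sign there. Galnt7 and Gnai2 were at 0.019 and 0.018 with library totals, Galnt1 and Galnt2 at -0.012 and -0.0026 with quantile normalization, and Ppargc1b at -0.0011 with a pseudocount of 0.25. With library weights Galnt1, Galnt2, Galnt7, Ppargc1b and Gnai2 were at -0.0297, -0.026, 0.036, -0.011 and 0.019. Leaving out 1 library gave -0.035 to 0.057 for Galnt1, -0.10 to 0.097 for Galnt2, -0.054 to 0.074 for Galnt7, -0.042 to 0.037 for Gnai2, -0.077 to 0.24 for Lifr, -0.020 to 0.27 for Map3k5, -0.27 to 0.17 for Ppargc1b and -0.0011 to 0.055 for Becn1.

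No pairing of the libraries by replicate number was seen, though the check is weak with groups of 3 or 4 libraries. Deviations of same-numbered libraries correlated between -0.28 and 0.26, over 0.1 in 3 of 10 pairs. Those of other pairs correlated between -0.41 and 0.36. A library was closest to its own number in 6 of 20 cases. With the replicate number as a block, 3808, 4584 and 0 genes were called in mimic against scramble, mimic against PBS and scramble against PBS, and 6, 8 and 0 of the 10.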
